A study of Mus musculus with 24 samples.

Results

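Oxidative phosphorylation (OXPHOS) is carried out in the inner mitochondrial membrane by 5 multi-subunit complexes, most of whose subunits are encoded in the nucleus. The genes described here are those whose symbols in the deposited table name a subunit of complex I (Nduf genes), complex II (Sdha to Sdhd), complex III (Uqcr genes), complex IV (Cox4 to Cox8 genes) or complex V (Atp5 genes), without symbols ending in -ps, and with 3 or more libraries at or above a value of 1. The symbols matched 84 genes besides 3 left out for -ps, and 80 of the 84 passed the value filter, out of 18637 genes tested and 43629 identifiers in the table. They are 35 genes of complex I, 4 of complex II, 8 of complex III, 16 of complex IV, 15 of complex V, and Atp5s and Atp5sl, 2 genes with ATP synthase symbols whose products are not subunits. Ndufa4 and its paralog Ndufa4l2 were counted with complex IV, to which the Ndufa4 protein belongs. The 4 genes that did not pass were Cox4i2, with 7 reads over all libraries, and Cox7b2, Cox8b and Cox8c, which had no read in any library.

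The libraries were RNA sequencing of cultured bone marrow-derived macrophages (BMDMs) of C57BL/6 mice at postnatal week 10. The 8 groups of 3 libraries were wild type (WT) cells and cells labelled CITED2-KO (KO), which lack the transcriptional co-regulator CITED2, each kept as control or treated with LPS (a bacterial cell wall component), IFNg or IL4. The labels give no dose, no treatment time, no promoter or cell type for the deletion, and nothing on whether the 3 libraries of a group are separate mice, so p-values here reflect library-to-library spread, which may be technical. Cited2 in the KO libraries was 1.26%, 1.35%, 0.558% and 1.02% of its WT mean in control, LPS, IFNg and IL4. Recovered reads per library ran from 1478507 to 73409343 with a median of 29551522.5, and the 3 shallowest were WT control replicate 3 (7818719), WT LPS replicate 1 (7921412) and KO LPS replicate 1 (1478507). The 80 genes together had between 4388 reads (KO LPS replicate 1) and 284535 reads in a library. The summed level of 12 macrophage markers was between 442478 and 601926 in every library, against at most 7966 for 10 neutrophil markers, 846 for 8 dendritic cell markers and 548 for 7 fibroblast markers. The neutrophil list was lowest in WT control (2770 to 2977) and highest in WT LPS (7487 to 7966), and with IL4 it was 5007 to 5352. The dendritic cell list was highest in WT IFNg (758 to 846), and the fibroblast list was 541 to 548 in WT IL4 against 296 to 377 in WT control. The part of these lists in the results was not tested. The sum of 7 mast cell genes was 343 to 369 in WT control and 338 to 365 in KO control. It was 118 to 159 in WT LPS, 80.3 to 111 in WT IFNg and 68.6 to 80.1 in WT IL4, and its part in the results was not tested either. Of these 7, Mcpt4 and Tpsb2 were at 0 in all libraries, as were the haemoglobin genes Hbb-bs, Hbb-bt, Hba-a1 and Hba-a2.

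As background, complex I takes electrons from NADH and complex II from succinate, complex III passes them from ubiquinol to cytochrome c, and complex IV passes them from cytochrome c to oxygen. Complexes I, III and IV pump protons, and complex V, the ATP synthase, uses the proton gradient to make ATP. In cultured macrophages IL4 is known for raising mitochondrial respiration, whereas LPS with or without IFNg is known for a shift towards glycolysis.

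The most abundant members per length of merged exon in WT control cells were Cox6b1, with 4011 normalised read counts per kilobase, Atp5a1 with 2899, Cox4i1 with 2517 and Atp5b with 2236. Cox6b1 and Cox4i1 encode complex IV subunits, and Atp5a1 and Atp5b the alpha and the catalytic beta subunit of the ATP synthase. Complex II, the smallest complex, had per-kilobase levels of 1766 for Sdhd, 1405 for Sdha, 762 for Sdhc and 572 for Sdhb. Where a subunit has tissue isoforms, the widely expressed one made up nearly all of the signal: Cox6a1 had a WT control value of 931 ± 64.4 (SD, n = 3) and its muscle isoform Cox6a2 5.16 ± 3.54. The same held for Cox6b1 (2840 ± 162) beside the testis isoform Cox6b2 (4.39 ± 0.566), for Cox7a2 (1200 ± 91.3) beside the muscle isoform Cox7a1 (33.7 ± 4.39), and for Ndufa4 (1425 ± 149) beside Ndufa4l2 (0.359 ± 0.623). Of the 3 genes that encode the same c subunit of the ATP synthase ring, Atp5g3 had 822 per kilobase, Atp5g2 11.7 and Atp5g1 8.71. Of the 80 genes, 21 have at least 1 near-identical annotated pseudogene (at least 95% identity over at least 80% of the shorter transcript), led by Atp5l with 9 copies, and the median level was 415 in these 21 against 843 in the 59 others. How the counting treated reads that fit both a gene and its copy is not given in the sources used here, so values of the 21 are uncertain. The 21 include Atp5g2 (2 copies) and Atp5g1 (1 copy) but not Atp5g3, and the part of such copies in their levels was not tested. A further uncertainty comes from annotation overlap, since 37 of the 80 overlap another annotated gene and strand use in the counting is not given. The members lie on 19 chromosomes, with at most 8 on one (chromosome 7).

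The promoters of 1 core subunit per complex are shown, since the core subunits moved together with IL4: the one with the largest called rise in WT cells that has a window in the table. Each is the RefSeq window from 250 bases before to 50 bases after the annotated start on GRCm38.p6, 5′ to 3′ on the gene's strand, with the letters of a searched motif in capitals. The 5 genes are Ndufs7 (a complex I iron-sulfur subunit; window chr10:80249199-80249498, + strand), Sdhb (the complex II iron-sulfur subunit; chr4:140961021-140961320, +), Uqcrc1 (a complex III core protein; chr9:108936398-108936697, +), Cox5a (a complex IV subunit; chr9:57520982-57521281, +) and Atp5b (chr10:128083057-128083356, +).
Ndufs7: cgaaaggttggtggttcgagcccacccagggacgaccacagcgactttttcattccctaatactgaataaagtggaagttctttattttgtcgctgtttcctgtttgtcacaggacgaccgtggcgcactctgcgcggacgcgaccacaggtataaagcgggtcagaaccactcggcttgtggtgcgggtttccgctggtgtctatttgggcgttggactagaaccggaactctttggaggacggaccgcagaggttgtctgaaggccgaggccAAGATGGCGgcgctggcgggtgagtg
Sdhb: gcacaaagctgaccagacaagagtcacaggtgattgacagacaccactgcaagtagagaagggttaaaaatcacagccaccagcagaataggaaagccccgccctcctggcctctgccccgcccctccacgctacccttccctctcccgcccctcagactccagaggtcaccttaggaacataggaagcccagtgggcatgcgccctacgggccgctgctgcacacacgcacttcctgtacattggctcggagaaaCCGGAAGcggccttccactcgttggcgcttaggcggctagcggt
Uqcrc1: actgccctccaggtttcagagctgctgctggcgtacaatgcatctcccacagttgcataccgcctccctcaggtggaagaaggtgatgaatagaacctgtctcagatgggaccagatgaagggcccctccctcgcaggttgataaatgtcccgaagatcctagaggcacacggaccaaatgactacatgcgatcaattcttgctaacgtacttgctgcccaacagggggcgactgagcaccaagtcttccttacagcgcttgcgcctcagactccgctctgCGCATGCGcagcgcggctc
Cox5a: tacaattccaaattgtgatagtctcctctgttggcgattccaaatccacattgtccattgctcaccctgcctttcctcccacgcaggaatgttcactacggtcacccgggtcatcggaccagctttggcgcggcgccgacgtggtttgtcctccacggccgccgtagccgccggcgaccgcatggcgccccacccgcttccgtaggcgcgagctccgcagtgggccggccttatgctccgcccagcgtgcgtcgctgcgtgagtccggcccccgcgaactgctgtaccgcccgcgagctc
Atp5b: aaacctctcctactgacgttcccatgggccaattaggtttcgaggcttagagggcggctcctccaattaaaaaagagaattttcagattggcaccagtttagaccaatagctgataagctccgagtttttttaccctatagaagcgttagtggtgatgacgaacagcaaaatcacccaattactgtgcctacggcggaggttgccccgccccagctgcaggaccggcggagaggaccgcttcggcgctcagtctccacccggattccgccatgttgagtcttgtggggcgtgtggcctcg
The capitals mark AAGATGGCG (a YY1 motif) in Ndufs7, CCGGAAG or its reverse complement (an ETS/GABP motif) in Sdhb, and CGCATGCG (an NRF1 motif) in Uqcrc1, while the windows of Cox5a and Atp5b hold none of the 5 motifs searched. Windows were found for 64 of the 80 members (69 windows) and compared with all 32851 windows of the table, searching both strands. CCGGAAG was in 23.19% of member windows and 8.858% of all windows, CGCATGCG in 13.04% and 1.872%, and AAGATGGCG in 10.14% and 1.403%. TGACGTCA (a CRE motif) was in 5.797% and 1.79%, and TCAAGGTCA (an ERR motif) in 2.899% and 0.4231%. At least 1 of the 5 was in 43.48% of member windows and in 13.22% of all windows, where 1 window can hold several motifs. A match is a run of letters and was not tied to binding in these cells.

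**Figure D1:**
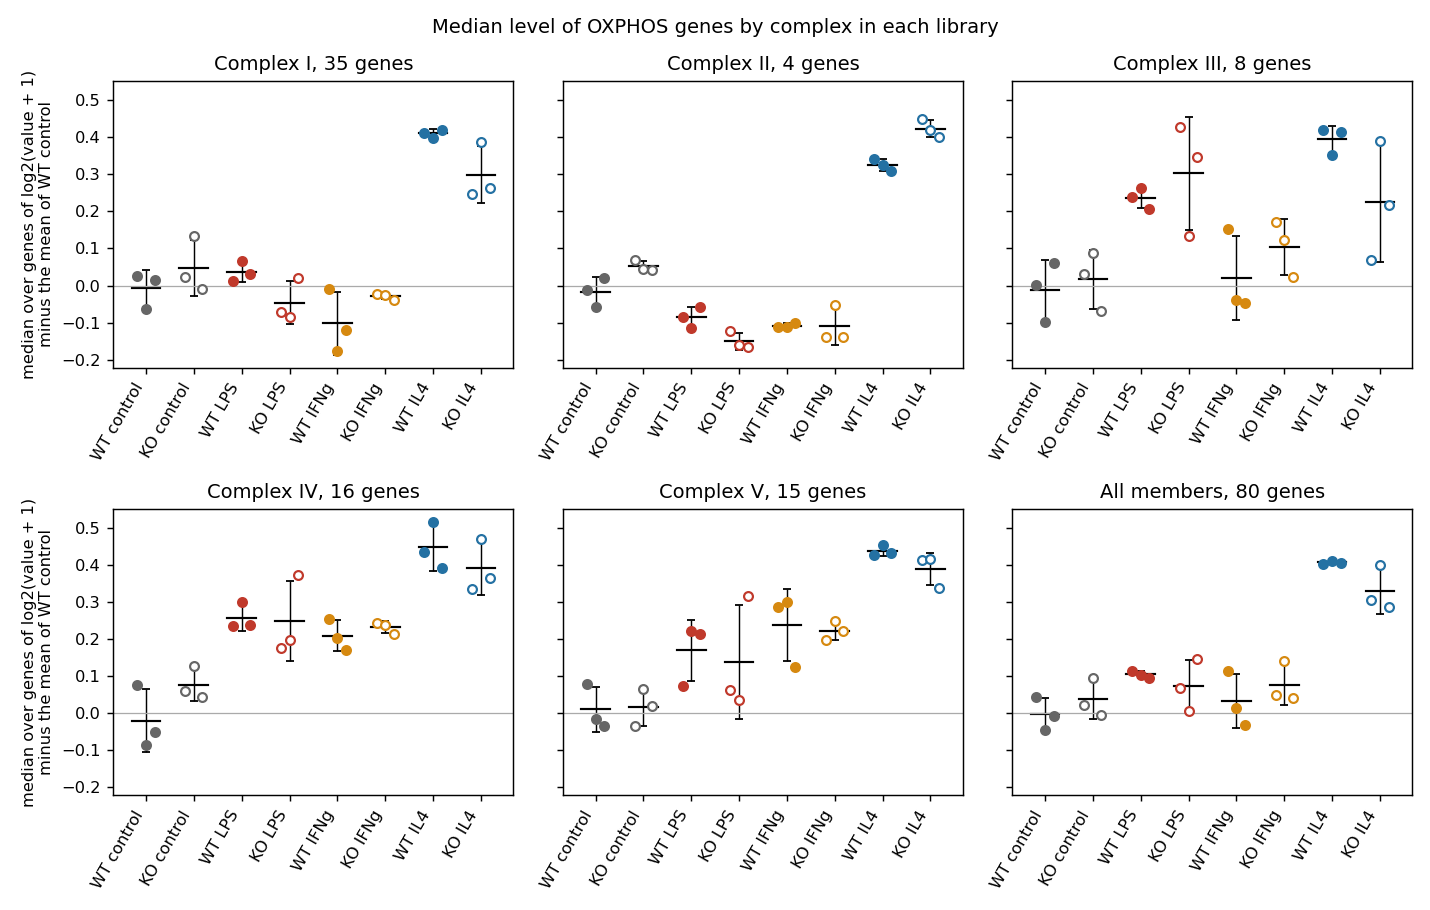
Median over the genes of each complex of log2(value + 1) minus the WT control mean, for each of the 24 libraries on the deposited scale; filled points are WT, open points KO, and bars give the mean and SD of 3 libraries. All 3 WT IL4 libraries lie between 0.403 and 0.412 for all 80 genes, above every control library (-0.046 to 0.096); heights with LPS and IFNg fall below control when libraries are scaled to total reads.

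IL4 was the treatment with which the nuclear OXPHOS genes rose together. In WT cells 51 of the 80 rose and 1 fell (limma, adjusted p below 0.05 with Benjamini-Hochberg over all 18637 genes), where 10.6% of all genes tested rose and 9.56% fell. The median log2 difference was 0.42 over the members and 0 over all genes, and 74 of the 80 differences were positive. Every complex took part: 22 of 35 genes of complex I rose, 3 of 4 of complex II, 6 of 8 of complex III, 10 of 16 of complex IV and 10 of 15 of complex V, with medians of 0.42, 0.33, 0.395, 0.44 and 0.42. Of the 20 catalytic or core subunits 17 rose. When libraries were scaled to total reads, 49 rose and 2 fell, beside 10.5% and 11.2% of all genes. All differences here are on the log2(value + 1) scale and are given ± SE.

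Among the members with a group mean of at least 50, Cox5a, a nuclear subunit of cytochrome c oxidase, had the largest rise. Its normalised read counts were 1241, 1008 and 1065 in WT control and 2023, 2090 and 1931 in WT IL4. The 2 groups did not overlap, and the log2 difference was 0.87 ± 0.14 (adjusted p = 2.2e-05, limma). Next came Uqcrq (0.74 ± 0.18, adjusted p = 0.0041), a small complex III subunit, Atp5o (0.73 ± 0.07, adjusted p = 5e-09), the oligomycin sensitivity subunit of the ATP synthase stalk, Ndufc1 (0.73 ± 0.14, adjusted p = 0.00046), an accessory subunit of complex I, Ndufa11 (0.70) and Cox5b (0.70 ± 0.14, adjusted p = 0.00039). Ndufa11, which overlaps the gene Vmac, lost its call in 4 of the 24 fits that left out 1 library. In complex II the rise was uneven. Sdhb, which carries the iron-sulfur clusters, had 1238, 1190 and 1412 in WT control and 2021, 2041 and 2129 in WT IL4, a log2 difference of 0.69 ± 0.07 (adjusted p = 5.9e-08). Sdhd, a membrane anchor, rose by 0.42 and the flavoprotein Sdha by 0.24, whereas the other anchor Sdhc did not pass the test at 0.16. Leaving out any 1 library kept the calls of Cox5a, Uqcrq, Atp5o, Ndufc1, Cox5b and Sdhb.

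The muscle isoform Cox6a2 had the largest log2 difference of all members with IL4, 2.60 ± 0.55 (adjusted p = 0.00092, limma), at a low level. Its values were 9.17, 3.87 and 2.44 in WT control and 30.0, 26.3 and 44.3 in WT IL4. In KO cells they were 5.51, 4.18 and 4.38 in control and 24.2, 26.0 and 16.0 with IL4, a difference of 2.00 ± 0.55 (adjusted p = 0.0088). Cox6a2 overlaps Itgad, an integrin gene on the opposite strand, and reads of the 2 genes cannot be told apart without strand. The one member that fell with IL4 in WT cells was Atp5sl (DMAC2, a complex I assembly factor), by 0.45 on the log2 scale, from 407, 406 and 393 to 291, 312 and 279.

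In KO cells 38 of the 80 members rose with IL4 and 1 fell, Atp5sl again, where 12.6% of all genes tested rose and 10.5% fell. The median difference was 0.30 over the members and 0 over all genes. By complex, 15 of 35, 3 of 4, 3 of 8, 9 of 16 and 8 of 15 genes rose for complexes I to V. Cox5a rose by 0.94 ± 0.14 (adjusted p = 6.6e-06, limma) and Sdhb by 0.50 ± 0.07 (adjusted p = 6.9e-06). The IL4 difference was lower in KO than in WT cells for 56 of the 80 members and higher for 24, where it was higher for 50.88% of all genes. The median of this difference between genotypes was -0.10 over the members and 0.01 over all genes. Ndufs7, an iron-sulfur subunit of complex I, was one of the 56. Its values were 313, 328 and 462 in WT control and 484, 514 and 574 in WT IL4 (0.53 ± 0.18, adjusted p = 0.039), and 382, 433 and 294 in KO control and 289, 461 and 364 in KO IL4 (0.00 ± 0.18, adjusted p = 1.0). The WT groups did not overlap and the KO groups did, but the interaction of genotype with IL4 for Ndufs7 was -0.53 ± 0.26 (adjusted p = 0.43), so a difference between genotypes was not shown by the fit as planned. With library weights it was -0.63 and passed the test (adjusted p = 0.019). Its WT call was lost without WT control replicate 1 or 2 or without any 1 of the 3 WT IL4 libraries (adjusted p up to 0.18), and with total reads (adjusted p = 0.053). KO IL4 replicate 1 was the lowest KO IL4 library for Ndufs7, and also for Ndufa13, Ndufb7, Uqcrq, Uqcr10 and Uqcr11.

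No member passed the test of the interaction of genotype with IL4, where 2.45% of all genes were called higher and 1.15% lower in the KO response. At an unadjusted p below 0.05 there were 9 members, 1 higher and 8 lower, and edgeR called 1 and DESeq2 called 0. With library weights 12 were called, all lower. The number of all genes called with library weights is not given here. Whether these 12 exceed the share of all genes therefore cannot be told. KO IL4 replicate 2 stood above the other 2 KO IL4 libraries, with a median over the 80 genes of 0.399 against 0.304 and 0.286 for replicates 1 and 3, and the 3 WT IL4 libraries were at 0.403, 0.412 and 0.406. The 80 genes took 0.610% to 0.623% of the reads of WT IL4 libraries and 0.550% to 0.598% of those of KO IL4 libraries, against 0.463% to 0.491% in WT control and 0.455% to 0.479% in KO control.

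**Figure D2:**
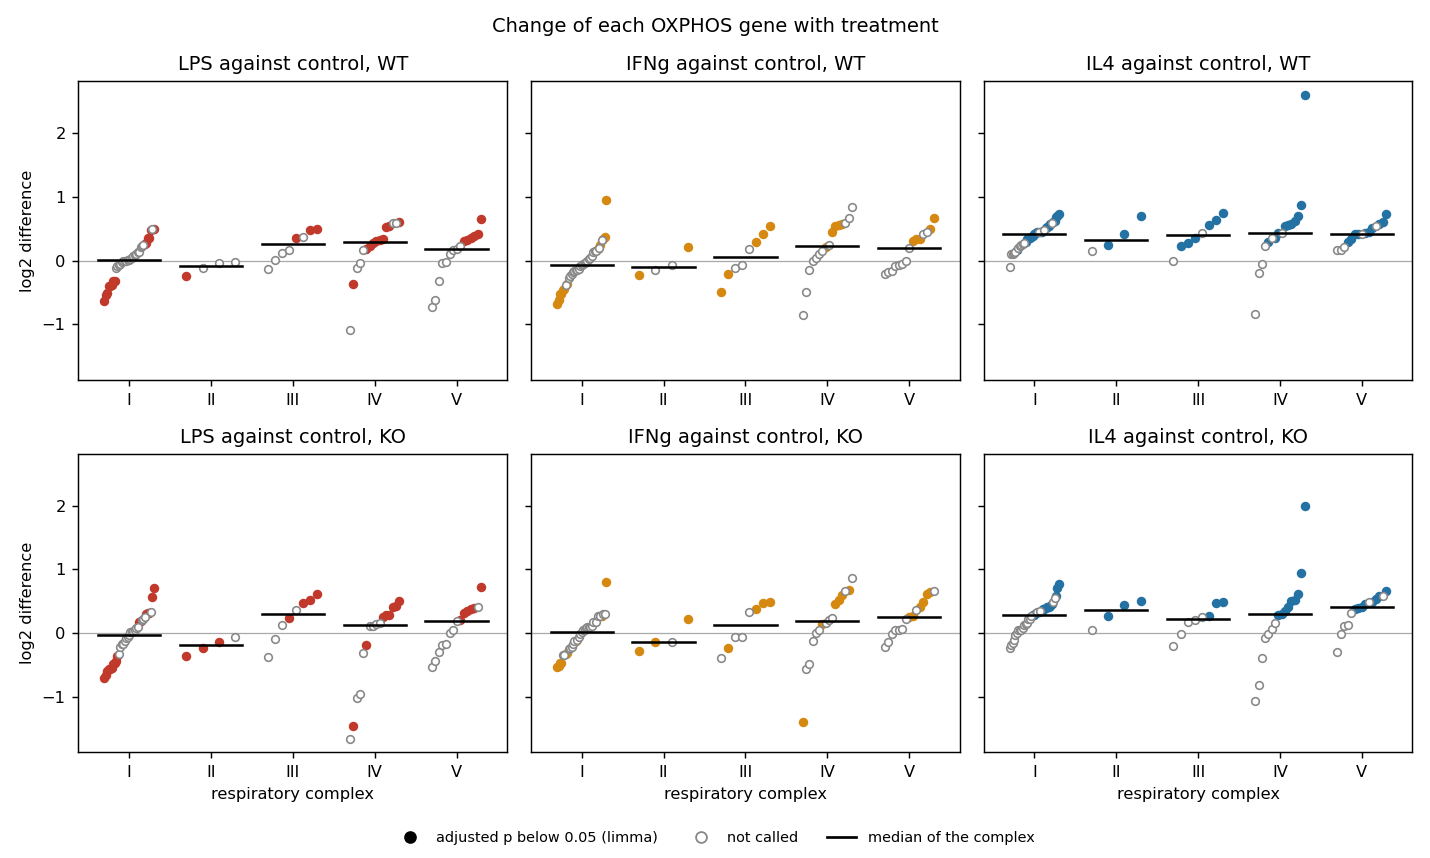
Log2 difference of each gene of complexes I to V from the control of the same genotype, by respiratory complex, on the deposited scale. Filled points passed the test (limma, adjusted p below 0.05), open points did not, and bars are medians. Atp5s and Atp5sl are not drawn. Counting also Atp5s and Atp5sl, 74 of 80 differences with IL4 were above 0 in WT cells and 64 in KO cells. Complex I spreads to both sides with LPS and IFNg, and all 4 complex II genes lie below 0 with LPS. Scaled to total reads, the rises with LPS are lost and 70 of 80 members fall in WT cells.

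With LPS the members split by gene on the deposited scale, whereas with total reads most of them fell. On the deposited scale 24 of 80 rose and 12 fell in WT cells, and scaled to total reads 0 rose and 70 fell. The shares over all genes on the deposited scale were 25.5% higher and 27.8% lower, beside 30% and 15% of the members. With total reads 13.3% of all genes were higher and 50% lower. That change of scaling moved the median of all genes by -0.57 with LPS in WT cells, -0.59 with LPS in KO cells, and -0.35 and -0.34 with IFNg in WT and KO cells, but by -0.01 and -0.03 with IL4. Relative to the median of all genes, the members' median with LPS in WT cells was 0.17 higher on the deposited scale and 0.02 lower with total reads. As a share of reads the 80 genes fell from 0.463% to 0.491% in WT control to 0.321% to 0.335% in WT LPS, while the sum of their deposited values went from 88842 to 93262 up to 104393 to 106867. edgeR and DESeq2, each with its own library factors, called 40 and 38 members with LPS in WT cells. Neither turned the direction over all members. Which scale is closer to RNA per cell cannot be told from these files, and in bulk libraries fewer cells of a type and less RNA per cell cannot be told apart.

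The complexes differed in their members' calls with LPS. In WT cells on the deposited scale, complex I had 6 genes higher and 8 lower of 35, complex II 0 and 1 of 4, complex III 3 and 0 of 8, complex IV 9 and 1 of 16, and complex V 6 and 0 of 15. Scaled to total reads no gene of any complex rose. The medians on the deposited scale were 0.02, -0.08, 0.26, 0.29 and 0.18 for complexes I to V, beside -0.06 for all genes.

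Atp5b had the largest rise with LPS on the deposited scale, a direction that turned with the scale. Its values were 9817, 9267 and 9340 in WT control and 14708, 15154 and 14995 in WT LPS, a difference of 0.66 ± 0.04 (adjusted p = 3.8e-13, limma). Scaled to total reads the Atp5b difference was -0.11, and in KO cells it was 0.72 on the deposited scale and -0.15 with total reads. The other largest rises on the deposited scale were Cox5a (0.60), Cox5b (0.53), Cox7a2 (0.53 ± 0.08), Ndufs4 (0.50 ± 0.10), an accessory subunit of complex I, and Uqcrfs1 (0.50 ± 0.08), the Rieske iron-sulfur protein of complex III. Scaled to total reads Cox7a2, Ndufs4 and Uqcrfs1 were lower, at -0.23, -0.26 and -0.27, and Cox5a (-0.16) and Cox5b (-0.23) did not pass the test. Among called subunits with a group mean of at least 50, the largest falls were those of Ndufs8, Ndufs7 and Ndufa6. Total-read scaling, which lowers all genes with LPS, makes any fall larger. Ndufs8, a complex I subunit with 2 iron-sulfur clusters, went from 466, 440 and 437 in WT control to 306, 323 and 242 in WT LPS, a difference of -0.64 ± 0.12 (adjusted p = 4.6e-05, limma), or -1.40 with total reads. Ndufs7 fell by 0.54 and the accessory subunit Ndufa6 by 0.51, which became falls of 1.30 and 1.28 with total reads. The Ndufs7 call with LPS in WT cells was lost when WT control replicate 3 or WT LPS replicate 3 was left out (-0.37 and -0.47, with adjusted p of 0.12 and 0.06).

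The complex II gene Sdhb fell with LPS where it had risen with IL4. Its values in WT LPS were 1076, 1125 and 1029, below the 3 WT control libraries, with a difference of -0.25 ± 0.07 (adjusted p = 0.0059, limma), and of -0.17 without WT control replicate 3 (adjusted p = 0.061). In KO cells Sdhb was 1382, 1473 and 1393 in control and 1252, 1004 and 1075 with LPS (-0.36 ± 0.07, adjusted p = 0.00017). The 2 non-subunit genes had the largest falls. Atp5sl went from 407, 406 and 393 to 143, 145 and 112 in WT cells (-1.60 ± 0.12, adjusted p = 1.8e-11), and Atp5s from 115, 103 and 92.8 to 28.5, 31.0 and 30.9 (-1.74 ± 0.29, adjusted p = 1.5e-05).

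LPS in KO cells gave 23 members higher and 17 lower on the deposited scale and 0 higher and 77 lower with total reads, where 24.5% and 32.5% of all genes were higher and lower on the deposited scale and 12.3% and 54.2% with total reads. Complex II had 3 of its 4 genes lower: Sdhb, Sdha and Sdhd. Ndufs8 fell by 0.54 and Ndufs7 by 0.65 in KO cells. The KO LPS group included the shallowest library, in which Cox7c, with values of 94.7 and 98.9 in the other 2 libraries, had no read. WT and KO LPS comparisons each used their own controls. No member was called for the interaction of genotype with LPS by limma, edgeR or DESeq2, beside 4.29% of all genes higher and 4.50% lower, and 3 members had an unadjusted p below 0.05.

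**Figure D3:**
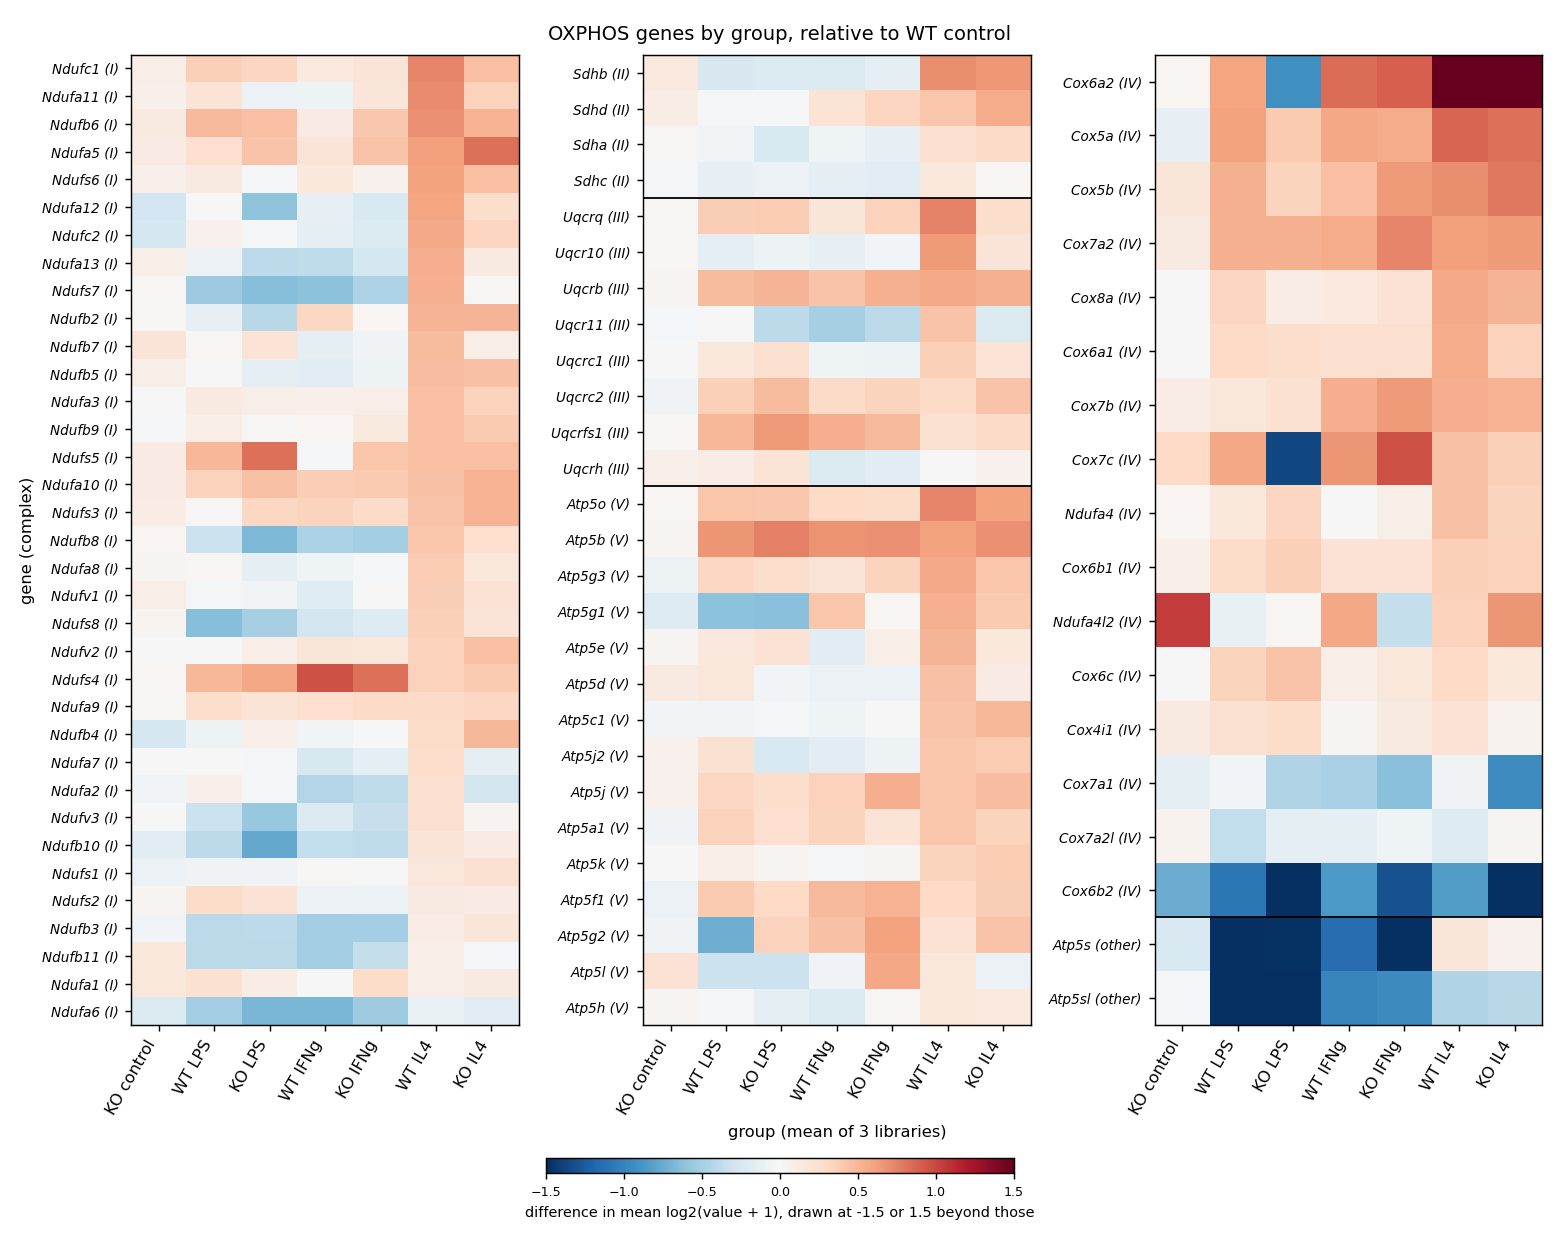
Mean log2(value + 1) of each of the 80 members in 7 groups minus that in WT control, on the deposited scale, by complex and ordered by the WT IL4 column; colours end at -1.5 and 1.5. The WT IL4 column is above 0 for 74 of 80 genes, and the LPS and IFNg columns mix red (Atp5b, Ndufs4, Uqcrfs1) and blue (Ndufs7, Ndufa6, Sdhb); with total reads the LPS columns hold no called rise.

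With IFNg 19 members rose and 12 fell in WT cells on the deposited scale, or 23.75% and 15% of the members beside 22.5% and 22.6% of all genes. With total reads 2 rose and 50 fell, where 14.1% of all genes were higher and 40.6% lower. The median was -0.01 over the members and 0 over all genes. Complex IV and complex V had 5 rises each and no fall, complex I had 5 rises and 7 falls, complex III 3 and 2, and complex II 1 and 1. With total reads complex IV had 7 falls and no rise, and complex V 6 falls and 1 rise.

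Ndufs4 had the largest rise with IFNg among the members. Its values were 620, 569 and 559 in WT control, 1161, 1177 and 1047 in WT IFNg and 730, 812 and 948 in WT LPS. The IFNg and control groups did not overlap, and the difference was 0.95 ± 0.10 (adjusted p = 7.5e-09, limma), still a rise of 0.51 (adjusted p = 2.5e-05) with total reads. In KO cells Ndufs4 was 600, 553 and 613 in control and 920, 1108 and 1071 with IFNg (0.81 ± 0.10, adjusted p = 1.2e-07). Atp5b was the other rise on both scales, 0.67 ± 0.04 on the deposited scale and 0.23 with total reads in WT cells. Cox5a (0.58), Cox7a2 (0.56), Uqcrfs1 (0.55) and Cox7b (0.55) rose on the deposited scale and did not pass the test with total reads, where they were 0.14, 0.12, 0.11 and 0.105. Among called subunits with a group mean of at least 50, the falls were led by Ndufa6 (-0.69 ± 0.08, adjusted p = 3e-08, limma), Ndufs7 (-0.62), Ndufb3 (-0.52) and Ndufb11 (-0.52), accessory subunits except for Ndufs7. Atp5s fell by 1.14 and Atp5sl by 0.99. Sdhb fell by 0.22 (adjusted p = 0.014), and without WT control replicate 3 or WT IFNg replicate 3 it did not pass the test (adjusted p = 0.13 and 0.065). Ndufs7 did not pass the test without WT control replicate 3 (-0.44, adjusted p = 0.067).

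In KO cells IFNg gave 19 members higher and 13 lower, beside 22.3% and 23.7% of all genes, and 3 higher and 50 lower with total reads, beside 13.1% and 41.4% of all genes. The differences of Atp5b (0.65), Cox5a (0.68), Uqcrfs1 (0.47) and Ndufa6 (-0.31) had the same sign as in WT cells. No member was called for the interaction of genotype with IFNg by limma or edgeR, beside 1.32% of all genes higher and 1.18% lower with limma. DESeq2 called 1 member, beside 849 of all genes, and 2 members had an unadjusted p below 0.05. The 3 treatments of a genotype share 3 control libraries, so their values are given side by side and their likeness was not tested.

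**Figure D4:**
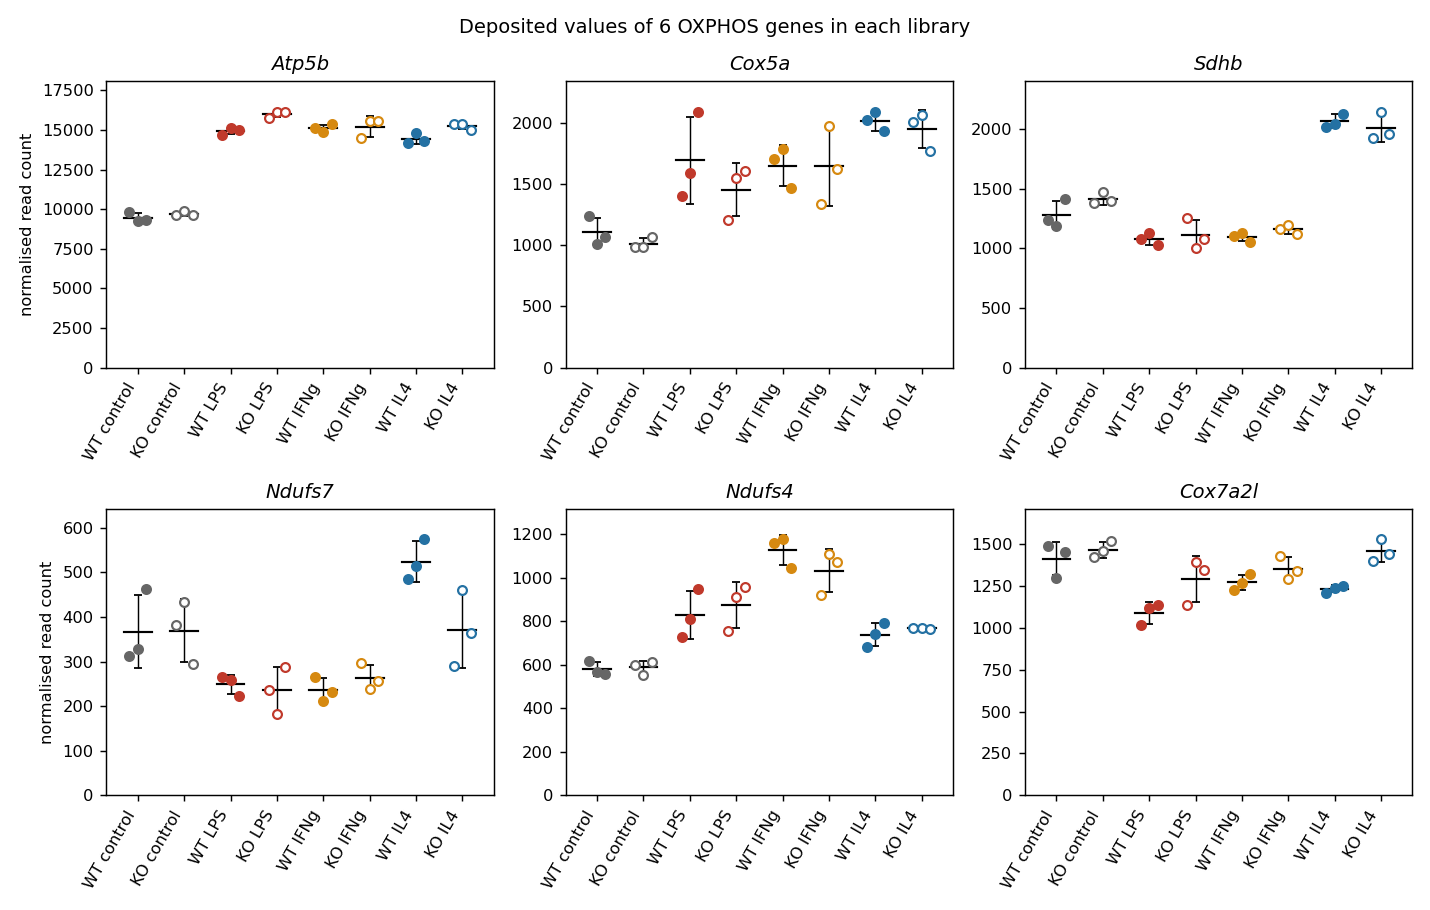
Deposited normalised read counts of 6 members in each library; filled points are WT, open points KO, and bars give the mean and SD of 3 libraries. Atp5b is at 9267 to 9903 in the 6 control libraries and at 14170 to 16155 in the 18 treated ones, Sdhb is high with IL4 alone (1920 to 2144), and Cox7a2l is higher in KO than in WT with LPS and IL4; with total reads the Atp5b difference with LPS is below 0.

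CITED2 loss changed few members. In control cells none of the 80 was called by limma or edgeR (4.11% of all genes were higher in KO and 3.05% lower), DESeq2 called 1, and 3 had an unadjusted p below 0.05. The median KO minus WT difference was 0.02 over the members and 0 over all genes. Sdhb was 1238, 1190 and 1412 in WT control and 1382, 1473 and 1393 in KO control (0.15 ± 0.07, not called), and without those 3 shallow libraries (WT control replicate 3, WT LPS replicate 1 and KO LPS replicate 1) it was 0.22 and called (adjusted p = 0.021). With IFNg no member was called by limma (4.83% of all genes higher and 4.21% lower), 6 had an unadjusted p below 0.05, and edgeR called 6 and DESeq2 4. The median was 0.06 over the members and -0.03 over all genes.

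With LPS 1 member was higher in KO than in WT and 3 were lower, where 9.70% of all genes were higher and 12.5% lower. With total reads 0 were higher and 25 lower, where 5.52% of all genes were higher and 24.8% lower. The higher one was Cox7a2l (SCAF1), counted here with complex IV. Its values were 1015, 1120 and 1133 in WT LPS and 1134, 1393 and 1343 in KO LPS, so the groups did not overlap but the highest WT library and the lowest KO library were next to each other (0.24 ± 0.07, adjusted p = 0.017, limma). The lower ones were Ndufb10, an accessory subunit of the complex I membrane arm, with 681, 732 and 724 in WT and 449, 592 and 622 in KO (-0.37 ± 0.09, adjusted p = 0.0047), Ndufb8 (-0.35 ± 0.10, adjusted p = 0.014) and Sdha (-0.19 ± 0.05, adjusted p = 0.0082). KO LPS replicate 1, the shallowest library, was the lowest of the 3 KO libraries for all 4 genes. Without it Ndufb8 was -0.22 (adjusted p = 0.096) and Sdha -0.11 (adjusted p = 0.083), while Ndufb10 was still called. Ndufb8 also lost its call without WT LPS replicate 1 (-0.26, adjusted p = 0.1), and Cox7a2l lost it when WT LPS replicate 1, KO LPS replicate 2 or KO LPS replicate 3 was left out (0.19, 0.18 and 0.21, with adjusted p of 0.098, 0.08 and 0.056). In a fit of the 2 LPS groups alone no member was called.

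With IL4 1 member was higher in KO than in WT and 3 were lower, where 6.14% of all genes were higher and 3.14% lower. The number of members called rose to 12 with edgeR, 10 with DESeq2, 20 with library weights and 11 without the 3 shallowest libraries. Counts over all genes are not given here for library weights or without those 3 libraries. The 20 and the 11 therefore cannot be set beside a share of all genes. Cox7a2l was again higher, at 1400, 1527 and 1442 in KO IL4 against 1208, 1238 and 1249 in WT IL4 (0.24 ± 0.07, adjusted p = 0.031, limma). The lower ones were small subunits: Uqcr11 (-0.65 ± 0.19, adjusted p = 0.033) and Uqcr10 (-0.45 ± 0.13, adjusted p = 0.029) of complex III and Ndufa2 (-0.52 ± 0.15, adjusted p = 0.027) of complex I. Uqcr11 was 351, 319 and 359 in WT IL4 and 167, 256 and 242 in KO IL4, and Uqcr10 was 872, 790 and 905 in WT and 537, 770 and 592 in KO, without overlap in either gene. KO IL4 replicate 1 was the lowest library of the KO group for Uqcr11, Uqcr10 and Ndufa2. Without it none of the 3 was called (-0.46, -0.34 and -0.41, with adjusted p of 0.27, 0.22 and 0.19). None of the 4 calls with IL4 was kept when WT IL4 replicate 1 was left out, when 0 members were called. The median KO minus WT difference with IL4 was -0.07 over the members, 0 over all genes, and -0.12 over 86 cytosolic ribosomal protein genes, of which 4 were called higher and 1 lower.

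Averaged over control, LPS, IFNg and IL4, 4 members were higher in KO and 4 lower, where 11.6% of all genes were higher and 10.7% lower. With total reads 0 were higher and 28 lower, where 6.99% of all genes were higher and 24.4% lower. The higher ones were Ndufa5 (0.19 ± 0.06), Cox7a2l (0.16 ± 0.04), Sdhd (0.09 ± 0.03) and Atp5b (0.06 ± 0.02), and the lower ones Ndufa12 (-0.33 ± 0.12), Ndufb10 (-0.16 ± 0.05), Ndufv3 (-0.15 ± 0.05) and Atp5a1 (-0.09 ± 0.02). Cox7a2l had the smallest adjusted p (0.0019, limma), and it was higher in KO by 0.06 in control and 0.09 with IFNg, where it was not called. Leaving out any 1 of the 24 libraries kept the call for Cox7a2l, Ndufb10 and Atp5a1. The others lost it in 6 of 24 such fits for Ndufa5, 8 for Sdhd, 16 for Atp5b, 20 for Ndufa12 and 15 for Ndufv3. With total reads Cox7a2l was 0.06 and not called (adjusted p = 0.17). Cox7a2l has 1 near-identical pseudogene.

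The partners of these genes in the same membrane were measured in part. Of the 13 subunits encoded in mitochondrial DNA 7 were tested, and 6 (mt-Co2, mt-Co3, mt-Atp6, mt-Atp8, mt-Nd3 and mt-Nd4l) were listed at 0 in all libraries. With IL4 3 of the 7 rose in WT cells: mt-Nd1 (0.37 ± 0.08), mt-Nd2 (0.33 ± 0.08) and mt-Cytb (0.23 ± 0.08), with a list median of 0.16 beside 0.42 for the nuclear genes. With LPS 6 of the 7 rose on the deposited scale (median 0.42) and 6 fell with total reads (median -0.35), and with IFNg 6 rose on the deposited scale (median 0.495) and none was called with total reads. On the deposited scale 10.6% of all genes rose with IL4 in WT cells, 25.5% with LPS and 22.5% with IFNg. With total reads 50% of all genes were lower with LPS, and 14.1% were higher and 40.6% lower with IFNg. Relative to all genes the 7 were higher with LPS in WT cells on both scales, by 0.48 and 0.285, where the nuclear members were at 0.17 and -0.02.

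Other mitochondrial gene lists are set beside the 10.6% of all genes that rose and the 9.56% that fell with IL4 in WT cells. Of 17 tricarboxylic acid cycle genes 10 rose and none fell in each genotype. In WT cells these included Idh3a (0.73 ± 0.10), Suclg1 (0.46 ± 0.07) and Mdh2 (0.49 ± 0.07). Of 49 assembly factors 8 rose and 1 fell in WT cells: Coa5 (0.46), Iscu (0.80) and Ndufaf4 (0.66) were among the rises, and Ndufaf7 was the fall (-0.58). Of 76 mitochondrial ribosomal proteins 18 rose and 2 fell, with a median of 0.19, and of 86 cytosolic ribosomal proteins 1 rose and 2 fell, with a median of 0.02. Of 18 transcriptional regulators of mitochondrial genes 3 rose and none fell, with a median of -0.05. With LPS in WT cells the assembly factors had 5 rises and 36 falls with total reads, beside 13.3% and 50% of all genes. On the deposited scale they had 13 and 17, beside 25.5% and 27.8% of all genes. The largest were Coa5 (1.90 ± 0.06) and Sco1 (1.82 ± 0.08), which serve complex IV assembly, and Uqcc3 (-1.98 ± 0.14) and Tmem126b (-1.94 ± 0.10), which serve complexes III and I.

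**Figure D5:**
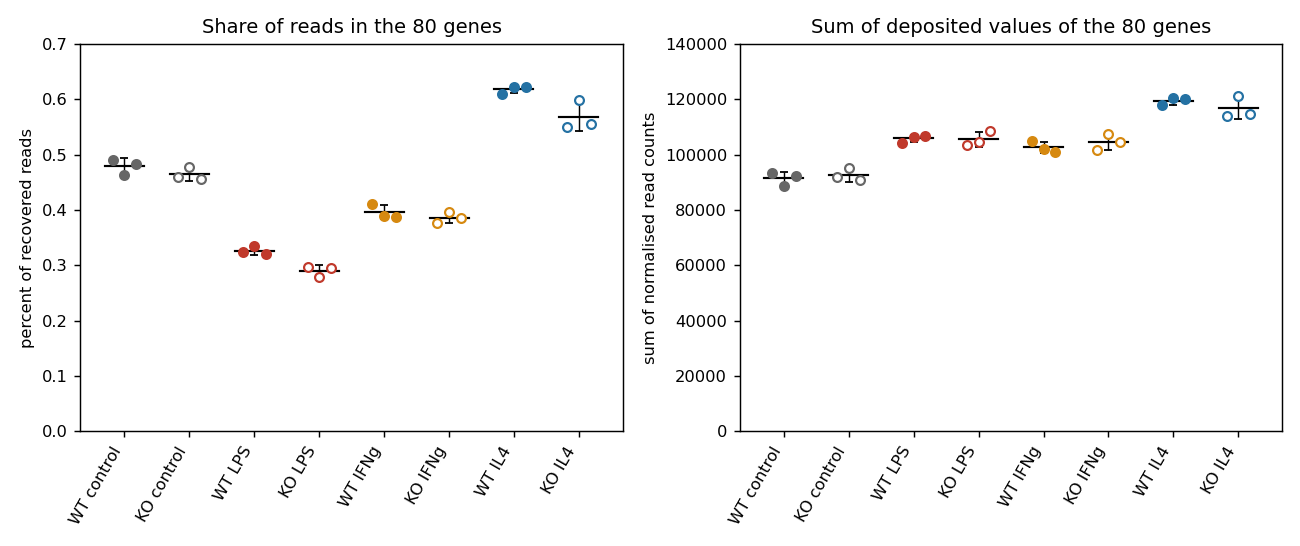
Left, percent of recovered reads in the 80 members for each library; right, sum of their deposited values; filled points are WT, open points KO, and bars give the mean and SD of 3 libraries. IL4 is above control in both panels, while LPS and IFNg are below control as a share of reads and above it as a sum of deposited values.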

How the data were processed

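RNA of 24 libraries was sequenced by the submitters. The authors deposited 1 table of normalised read counts, a signal that is a library's reads per gene divided by a library factor. Processing used TopHat2 2.2.1, Cufflinks 2.2.1 and Cuffdiff on GRCm38, per the submitters' processing notes; the counting tool, annotation and strand setting of the deposited values are not given in the sources used here. The smallest steps of each column gave back whole reads for 100% of values within 0.05 reads. The members and lists were chosen with earlier results of these data known.

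Genes that reached a value of 1 in 3 or more libraries were tested with limma 3.58.1 (R 4.3.3) on log2(value + 1), in 1 fit of 8 group means over all 24 libraries, with Benjamini-Hochberg adjustment over 18637 genes. Contrasts set KO against WT per treatment and averaged, and treatments against control per genotype, with their interactions. edgeR 4.0.16 and DESeq2 1.42.0 were run on recovered reads: edgeR called 4945 genes for IL4, 10575 for LPS and 10032 for IFNg in WT cells, and 1905, 3543, 2533 and 2862 for KO against WT in control, LPS, IFNg and IL4. The limma, edgeR and DESeq2 steps were tested on simulated data. Tables were handled with Python 3.11.15 and pandas 2.3.3; positions came from GENCODE M21 and promoters from RefSeq. Named members were core subunits, isoform sets, and the 5 largest called rises and falls with a group mean of at least 50; of companion lists, up to 4 genes with the smallest p. The alternatives were another pseudocount, filters, scalings, library weights, tests, the replicate number as a block, the compared groups alone, and each library left out.

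Replicate numbers did not pair the libraries in general: deviations from group means correlated at -0.036 on average between same-numbered libraries and 0.0174 between others. For KO against WT with IFNg all 3 same-numbered pairs were over 0.1 (0.431, 0.439 and 0.109). No 2 replicates agreed within sampling noise (chi-square per degree of freedom 2.03 to 24.5).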

Additional observations from a re-analysis of the deposited data

How the results depend on the processing

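With IL4, 42 to 60 members in WT cells and 31 to 45 in KO cells were called when 1 library was left out. The alternatives chosen after seeing the data were scaling to total reads, leaving out the 3 shallow libraries, and the 2 IFNg groups alone with the block. Scaled to total reads, the direction turned for LPS in WT (70 called) and KO (77) and IFNg in WT (52) and KO (53), and KO against WT gave 25 with LPS, 28 on average, 1 in control and 1 with IFNg, and 2 for the LPS interaction. By complex it turned for LPS in WT (III 6, IV 11, V 14) and KO (III 8, IV 16, V 13), IFNg in WT (III 5, IV 7, V 7) and KO (III 4, IV 7, V 10), KO against WT with LPS (IV 4) and on average (II 2, IV 5). Genes that turned with LPS were Atp5b (-0.11 in WT, -0.15 in KO), Cox5a (-0.36 in KO), Uqcrfs1 (-0.27 and -0.25), Ndufs4 (-0.26 and -0.3) and Cox7a2 (-0.23).

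Library weights gave 5, 12, 20 and 14 calls for KO against WT in control, IFNg, IL4 and on average, 50 for IFNg in KO, 1 and 12 for the IFNg and IL4 interactions, and 46 for IFNg in WT, with more falls than rises. Counts over all genes with library weights are not given here. edgeR gave 6 (IFNg), 12 (IL4) and 1 (IL4 interaction), and DESeq2 1, 4 and 10 for control, IFNg and IL4 and 1 for the IFNg interaction. Over all genes, in the same order, edgeR called 2533, 2862 and 925, and DESeq2 1889, 2576, 2735 and 849. Without the 3 shallow libraries KO against WT gave 1, 5 and 11 for control, IFNg and IL4, and the IL4 interaction 1. The compared groups alone gave 0 for KO against WT with LPS, 2 with IFNg, 23 for LPS in KO and 1 for the IFNg interaction. The filter at 10 gave 8 for KO against WT with LPS and 1 for the IFNg interaction, as did a pseudocount of 10 for the latter (1), and median centring gave 1 for KO against WT with IFNg. The average over complex IV turned with edgeR (3) and without the shallow libraries (3).

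Leaving out 1 library, KO against WT gave 0 to 2 in control, 3 to 10 with LPS, 0 to 2 with IFNg, 0 to 9 with IL4 and 3 to 12 on average, LPS 31 to 41 in WT and 33 to 44 in KO, IFNg 25 to 37 and 26 to 38, and the interactions 0 to 2 (LPS), 0 to 1 (IFNg) and 0 (IL4). Directions turned for LPS in KO without KO LPS replicate 3 (37), KO against WT with IL4 without KO IL4 replicate 1 (1), complex IV with LPS between genotypes (1 to 2), complex I with LPS in WT without WT LPS replicate 3 (13) or KO LPS replicate 1 (17), and complex I with IFNg in KO without KO control replicate 2 (9, within a range of 8 to 15). The replicate block gave 0, 5, 0, 4 and 6 for KO against WT in control, LPS, IFNg, IL4 and on average, and 50 for IL4, 34 for LPS and 32 for IFNg in WT. In a fit of the 2 IFNg groups alone the block took 2 calls to 0. The cause of these changes was not tested. In KO LPS replicate 1, the shallowest library with 1478507 reads, 5 members had no read: Atp5l, Cox6a2, Cox6b2, Cox7c and Ndufa4l2.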
